A study of Homo sapiens with 16 samples.

Results

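The COMMD family of human genes was followed across 16 libraries of RNA from HEK 293 cells that came down with RISC, the RNA-induced silencing complex. Its members were the 10 entries with the symbols COMMD1 to COMMD10, of 19077 entries in the deposited count table, and all 10 passed the filter on low counts in each fit. The family was chosen by the counts of these libraries, because COMMD8 was high in those of mir1180-3p. That value is therefore given as a description with no test, and so are the levels of COMMD8 that rest on it.

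HEK 293 is a cell line derived from human embryonic kidney cells. In the RISC trap, a method that recovers mRNAs held by RISC through its partner protein GW182, the transcripts that come down with the complex are sequenced, so a level here is the amount of a transcript in the recovered RNA and not its amount in the cell. The libraries were 3 of mir124-3p titled Illumina, 1 of mir124-3p titled Solid, and 2 each of 6 further miRNAs: mir550-3p, mir3613-5p, mir1301-3p, mir1271-5p, mir1260a-5p and mir1180-3p. All were made from the HEK 293 line, with RNA extracted by Trizol and libraries prepared with a SOLiD kit for total RNA. No library without a miRNA is named in the labels, nor do they say how the miRNA was supplied, and whether the 2 libraries of a miRNA came from separate cultures is not stated, beyond a bio number in the descriptions of both mir550-3p libraries and of replicate 2 of mir1301-3p. The p-values therefore measure the spread between these libraries. For each of these 6 miRNAs the reference was the mean of the remaining 5 group means. These 6 comparisons share their reference libraries, and a gene that is high with mir1180-3p is by that fact lower in the others.

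COMMD proteins carry at their C-terminal end the COMM domain, which is named after copper metabolism and MURR1, the older name of COMMD1. The members assemble with one another and with CCDC22 and CCDC93 on endosomes, where they join the retriever proteins in the Commander complex, which returns membrane proteins such as copper transporters and lipoprotein receptors to the cell surface. Several members also bind NF-kappaB subunits and cullin ubiquitin ligases.

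A miRNA binds mRNAs mainly through its seed, bases 2 to 8 from the 5′ end. The sequences of 6 of the miRNAs are shown so that the seeds behind the compared libraries can be read. They come from RefSeq with the build GRCh38.p14, 5′ to 3′, with the seed in capitals.
mir1180-3p: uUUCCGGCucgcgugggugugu
mir1260a-5p: aUCCCACCucugccacca
mir1271-5p: cUUGGCACcuagcaagcacuca
mir1301-3p: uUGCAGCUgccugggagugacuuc
mir3613-5p: uGUUGUACuuuuuuuuuuguuc
mir550-3p: uGUCUUACucccucaggcacau
The genes of these mature miRNAs are MIR1180 at chr17:19344513-19344534 on the minus strand, MIR1260A at chr14:77266231-77266248 on the plus strand, MIR1271 at chr5:176367960-176367981 on the plus strand, MIR1301 at chr2:25328651-25328674 on the minus strand and MIR3613 at chr13:49996465-49996486 on the minus strand. RefSeq names the mir1260a sequence without an arm. For mir550-3p the sequence is that of hsa-miR-550a-3p, which the table places at 2 loci, of which the one shown is MIR550A2 at chr7:32733041-32733062 on the plus strand. The 6 seeds were all different, and the most similar pair differed at 2 of 7 positions. The seed of mir1180-3p had 5 bases that are G or C, and the lowest number was 3, in mir3613-5p and mir550-3p. Matches to these seeds in the COMMD transcripts were not analysed here.

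Levels are given in CPM, a library's counts scaled to a common total, with factors from the trimmed mean of M values over all 16 libraries. Total counts lay between 7612758 and 26527365, and a count of 0 would allow a level of up to 0.394 CPM in the shallowest library and 0.113 CPM in the deepest. The lowest count of any member in any library was 87, for COMMD1, so every member had counts in all 16 libraries. In the mir124-3p Illumina libraries the COMMD3 count was shared with overlapping entries, as given below. Of 10 genes typical of HEK 293, 9 lay above 1 CPM in all 16 libraries. Counts of replicate pairs were compared by their chi-square per degree of freedom. In mir124-3p Illumina it was 89.6 and 102 for replicate 2 against replicates 1 and 3, and 7.29 between replicates 1 and 3. For the replicate pairs of the other miRNAs it lay between 36.7, with mir1180-3p, and 84.8, with mir1260a-5p. Illumina replicates 1 and 3 were thus far closer to each other than any other pair, and the cause was not tested. No transcript lengths were used, so levels are compared between libraries and not between genes.

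COMMD8 forms a complex with COMMD3 that takes part in chemoattractant receptor signalling in mouse B cells. It had 2233 and 3044 CPM in the mir1180-3p libraries. It had 175 and 121 CPM in the mir1260a-5p libraries, 259 and 120.6 CPM with mir1271-5p, 279 and 127 CPM with mir1301-3p, 219 and 159.8 CPM with mir3613-5p, and 293 and 385 CPM with mir550-3p. Both mir1180-3p libraries lay far above the other 10, with no overlap.

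The mean of COMMD8 was 2639 ± 574 CPM with mir1180-3p (SD, n = 2), against 214 ± 89.0 CPM in the other 10 libraries (SD, n = 10), a ratio of 12.3. The fitted log2 fold change was 3.57 ± 0.27 (SE), or 11.9-fold, and 13 of the 17658 genes tested had a larger one. COMMD8 took up 0.206% of all counts in replicate 1 of mir1180-3p (95% Wilson interval 0.204 to 0.209%) and 0.286% in replicate 2 (0.283 to 0.2899%). In the other 10 libraries its share lay between 0.0130% and 0.0358%. These intervals cover counting error only.

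Among the counts of the 10 members, COMMD8 made up 70.9% and 79.2% in the mir1180-3p libraries. In the other 10 libraries of the 6 miRNAs it made up 11.7% to 28.3%, in mir124-3p Solid 10.4%, and in mir124-3p Illumina 5.06% to 5.40%. The whole family took up 0.291% and 0.362% of all counts with mir1180-3p, and 0.0988% to 0.168% in the other 10 libraries.

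**Figure D1:**
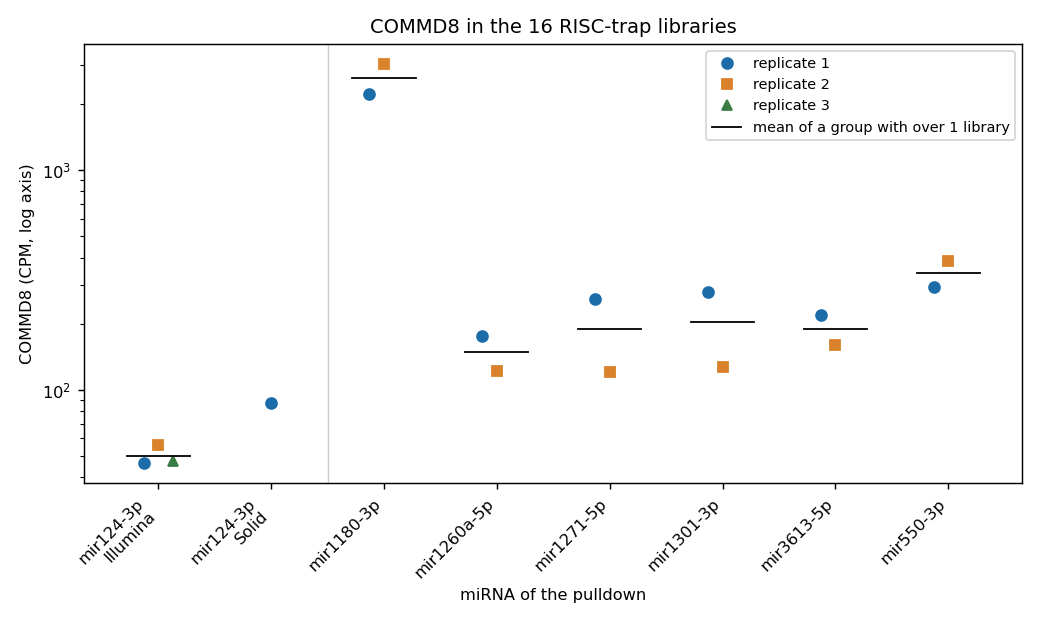
COMMD8 level in each of the 16 libraries, in CPM on a log axis, by miRNA. Each point is 1 library: the mir1180-3p libraries sit at 2233 and 3044 CPM, and the highest of the other 10 libraries of the 6 miRNAs is at 385 CPM, with mir550-3p.

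Among the 5 miRNAs other than mir1180-3p, COMMD8 averaged 339 ± 64.9 CPM with mir550-3p, 203 ± 108 with mir1301-3p, 189.7 ± 97.7 with mir1271-5p, 189.3 ± 41.7 with mir3613-5p and 148 ± 38.0 with mir1260a-5p (SD, n = 2 each). The mir550-3p libraries were the 2 highest of these 10, and the other 4 miRNAs overlapped. With the mir1180-3p libraries left out of the fit, a choice made after the data were seen, mir550-3p against the remaining 4 miRNAs gave a log2 fold change of 0.87 ± 0.34, which did not pass the test (edgeR adjusted p = 0.236). COMMD8 had the largest difference of the members in the comparisons of mir1260a-5p, -1.32 ± 0.36, and of mir1271-5p, -0.80 ± 0.35. Without the mir1180-3p libraries in the reference these log2 fold changes were -0.63 ± 0.37 and -0.07 ± 0.36.

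Of the other 9 members none was called with mir1180-3p at an edgeR adjusted p under 0.05 over all genes, with 0.208 as the lowest. Their log2 fold changes lay between -1.23 and 0.00. The background in this comparison was 2.07% of genes called in either direction, and 4.54% by DESeq2, which called 0 of the 9. An unadjusted p under 0.05 was found for 2 of the 9, COMMD4 and COMMD5, beside 13.7% of genes. The median of the 9 was -0.14, against -0.07 over all genes tested. For 0 of the 9 did both mir1180-3p libraries lie above the other 10, as they did for 3.68% of genes.

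COMMD4, a subunit of the Commander ring, had the lowest of these fold changes. It had 19.8 and 16.1 CPM with mir1180-3p, 18.8 and 59.8 CPM with mir1260a-5p, 31.7 and 46.7 CPM with mir1271-5p, 14.2 and 33.4 CPM with mir1301-3p, 49.0 and 53.6 CPM with mir3613-5p, and 45.4 and 47.9 CPM with mir550-3p. The mir1180-3p values were low but overlapped with mir1260a-5p and mir1301-3p, and the log2 fold change of -1.23 ± 0.44 did not pass the test (edgeR adjusted p = 0.208). Reads of COMMD4 may be shared with 2 pseudogenes that the RefSeq table lists, and those of COMMD5 and COMMD6 with 1 each, so the levels of these 3 members are uncertain to that extent.

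COMMD5, first described as a calcium-regulated gene related to hypertension in the kidney, was high in the mir3613-5p libraries, at 59.1 and 39.9 CPM. It had 15.6 and 19.3 CPM with mir1180-3p, 33.9 and 37.9 CPM with mir1260a-5p, 31.0 and 18.7 CPM with mir1271-5p, 18.0 and 21.6 CPM with mir1301-3p, and 22.2 and 29.0 CPM with mir550-3p. Both mir3613-5p libraries lay above the other 10, as they did for 2.08% of all genes. The mean was 49.5 ± 13.6 CPM with mir3613-5p (SD, n = 2), against 24.7 ± 7.64 CPM in the other 10 libraries, and the log2 fold change of 1.15 ± 0.29 did not pass edgeR's test (adjusted p = 0.163).

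With mir3613-5p no member was called, beside a background of 0.0906% of all genes, and of the 9 members other than COMMD8, COMMD4 and COMMD5 had an unadjusted p under 0.05, a share to be read beside 14.1% of all genes. The median of the members was -0.03, and -0.01 without COMMD8, against 0.01 over all genes. DESeq2 called 1.02% of genes here, with COMMD5 as the 1 member among them (log2 fold change 1.13, DESeq2 adjusted p = 0.0319).

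COMMD1, which takes part in copper export and in ending NF-kappaB signalling, was high in the mir550-3p libraries, at 36.9 and 24.8 CPM. It had 15.3 and 13.7 CPM with mir1180-3p, 6.62 and 18.2 CPM with mir1260a-5p, 16.3 and 19.9 CPM with mir1271-5p, 11.2 and 14.7 CPM with mir1301-3p, and 13.3 and 17.4 CPM with mir3613-5p. Both mir550-3p libraries lay above the other 10, as they did for 5.19% of all genes. The mean was 30.8 ± 8.52 CPM with mir550-3p (SD, n = 2), against 14.7 ± 3.80 CPM in the other 10 libraries, and the log2 fold change of 1.05 ± 0.34 did not pass edgeR's test (adjusted p = 0.137). This log2 fold change was 1.25 without replicate 2 of mir1260a-5p and 0.67 without replicate 1 of mir550-3p. Whether COMMD1 passed was not the same in every fit that left out 1 library.

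In the mir550-3p comparison 8 of the 10 members had a positive fold change, COMMD8 among them against a reference that holds the mir1180-3p libraries. The median was 0.44, and 0.45 without COMMD8, against -0.05 over all genes. No member was called, beside a background of 1.51%. An unadjusted p under 0.05 was found for 2 members, beside 16.4% of genes, and DESeq2 called 0 members, beside 6.05% of genes. The 8 included COMMD10, at 44.9 and 52.9 CPM, and COMMD2, at 131 and 128 CPM in the 2 libraries of this miRNA.

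COMMD10, a subunit of the Commander ring, was low in the mir1301-3p libraries, at 17.0 and 20.9 CPM. It had 35.6 and 27.4 CPM with mir1180-3p, 32.1 and 25.2 CPM with mir1260a-5p, 49.3 and 32.9 CPM with mir1271-5p, 32.2 and 27.4 CPM with mir3613-5p, and 44.9 and 52.9 CPM with mir550-3p. Both mir1301-3p libraries lay below the other 10, as they did for 7.62% of all genes. The mean was 19.0 ± 2.78 CPM with mir1301-3p (SD, n = 2), against 36.0 ± 9.70 CPM in the other 10 libraries.

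The log2 fold change of COMMD10 with mir1301-3p was -0.87 ± 0.32, which did not pass edgeR's test (adjusted p = 0.0676). It passed with DESeq2, which called 17.4% of genes here (-0.93, DESeq2 adjusted p = 0.0189). Without replicate 2 of mir1271-5p it was -0.94, and whether COMMD10 passed was not the same in every fit that left out 1 library. Upper-quartile scaling, which moved the median of all genes in this comparison by 0.39, gave COMMD10 a log2 fold change of -0.47.

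With mir1301-3p 9 of the 10 members had a negative fold change, COMMD8 among them against a reference that holds the mir1180-3p libraries. The median was -0.50, and -0.49 without COMMD8, against -0.02 over all genes. The median of the members was -0.10 with upper-quartile scaling, against 0.38 over all genes, and -0.15 with no scaling factor, against 0.33 over all genes. No member was called, beside a background of 15.9%, and of the 9 other than COMMD8 only COMMD10 had an unadjusted p under 0.05, beside 36.5% of genes. The background rests on both libraries: the 2815 genes called became 114 without replicate 1 of mir1301-3p and 142 without replicate 2. COMMD6, the shortest member of the family, was the exception in sign, with 766 and 367 CPM with mir1301-3p. The summed level of 5 fibroblast markers lay between 1.98 and 141 CPM over the 16 libraries and was highest in replicate 2 of mir1301-3p, where the 3 keratinocyte markers (18.3 CPM) and the 7 blood markers (11.5 CPM) also had their highest sums. The 4 liver markers had their highest sum, 9.47 CPM, in replicate 2 of mir1271-5p. The 10 genes typical of HEK 293 had their lowest sum, 1329 CPM of a range up to 2265 CPM, in replicate 1 of mir1301-3p. DCN and LUM, which define fibroblasts, were at under 1 CPM on average. The part of these markers in the mir1301-3p values was not tested.

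In the comparisons of mir1260a-5p and mir1271-5p no member was called, beside backgrounds of 0.215% and 0.606%. The medians of the members were -0.19 with mir1260a-5p and 0.20 with mir1271-5p, against 0.02 and 0.05 over all genes. Without COMMD8 the medians were -0.17 with mir1260a-5p and 0.20 with mir1271-5p. Of the 9 members other than COMMD8, 0 had an unadjusted p under 0.05 in either comparison, beside 5.33% of genes with mir1260a-5p and 9.34% with mir1271-5p. Of the same 9, DESeq2 called 0 with mir1260a-5p, beside 0.514% of genes, and 0 with mir1271-5p, beside 1.39%.

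**Figure D2:**
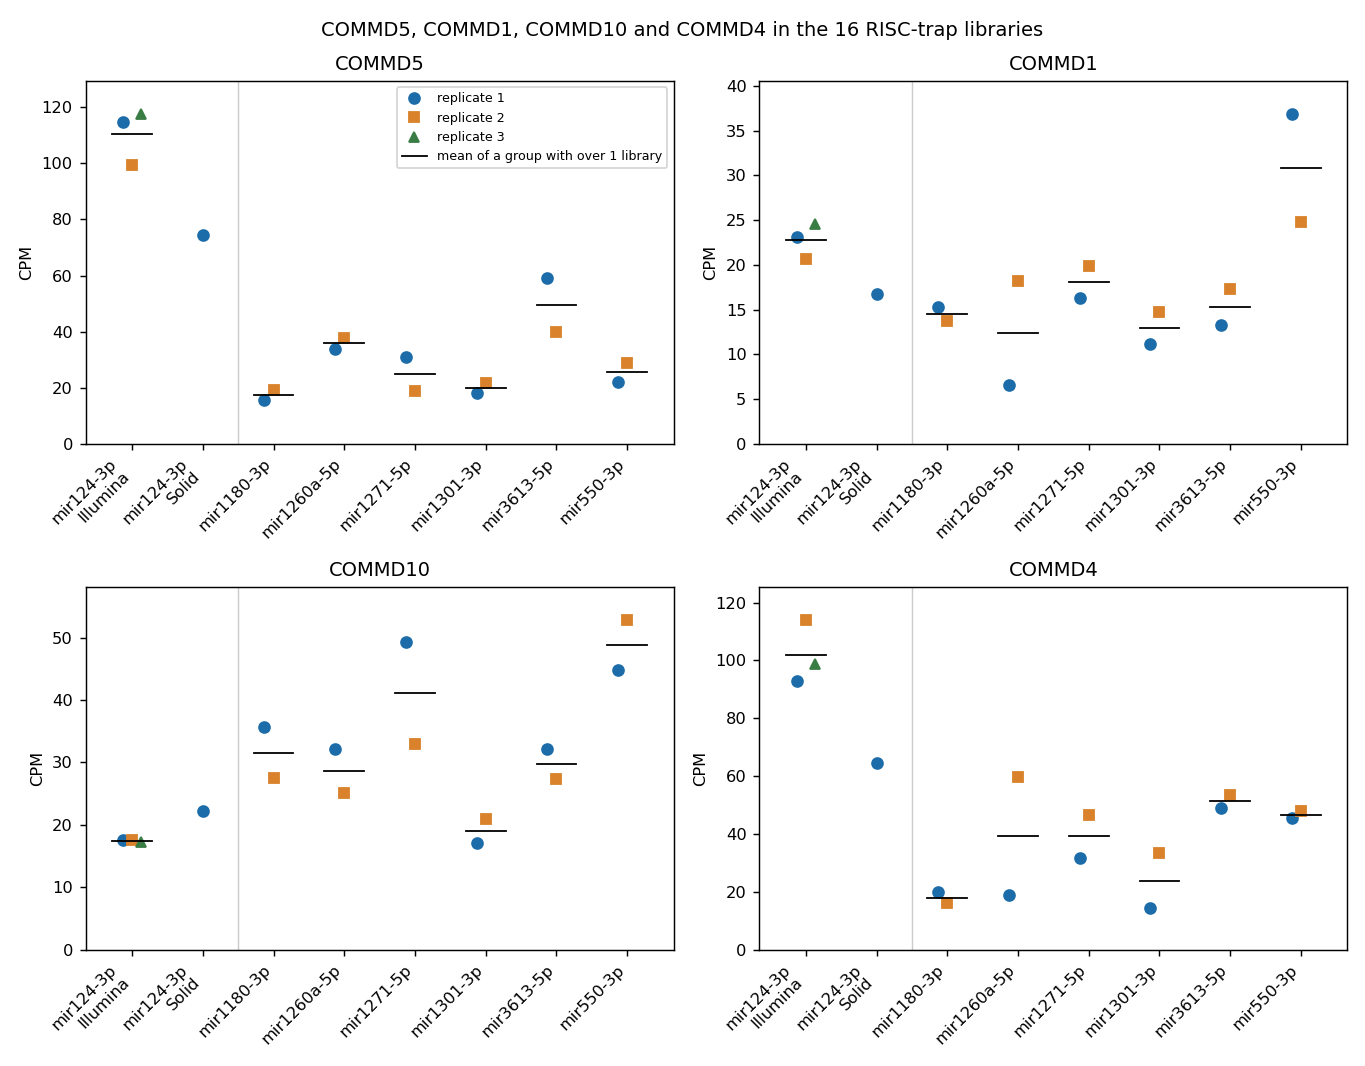
Levels of COMMD5, COMMD1, COMMD10 and COMMD4 in each of the 16 libraries, in CPM on axes that start at 0, by miRNA. Each point is 1 library: COMMD5 with mir3613-5p (59.1 and 39.9 CPM) and COMMD1 with mir550-3p (36.9 and 24.8 CPM) lie above the other 10 libraries of the 6 miRNAs, and COMMD10 with mir1301-3p (17.0 and 20.9 CPM) lies below them.

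The remaining members differed less between the 6 miRNAs. COMMD2, a subunit of the Commander ring, lay between 67.1 and 148 CPM over these 12 libraries. COMMD3, the partner of COMMD8 named above, lay between 25.5 and 63.3 CPM. COMMD6 lay between 330.4 and 766 CPM. COMMD7, which binds NF-kappaB subunits, lay between 71.3 and 191 CPM, and COMMD9, which in mouse acts in the recycling of Notch receptors, between 14.2 and 37.4 CPM.

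The SD of the 6 group means on the log2 scale was 1.57 for COMMD8 and was exceeded by 0.244% of genes. For the other 9 members it lay between 0.21, for COMMD6, and 0.60, for COMMD4, beside a median of 0.49 over all genes. The 2 libraries of a miRNA differed by a median of 0.49 over all genes on the same scale. Single pairs differed by more: COMMD4 by 1.66 and COMMD1 by 1.44 between the mir1260a-5p libraries, COMMD9 by 1.37 and COMMD7 by 1.29 between the mir1180-3p libraries, and COMMD8 by 1.14 between the mir1301-3p libraries. The SD of the group means was above the median of all genes for 4 members and under 0.5 for 6.

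**Figure D3:**
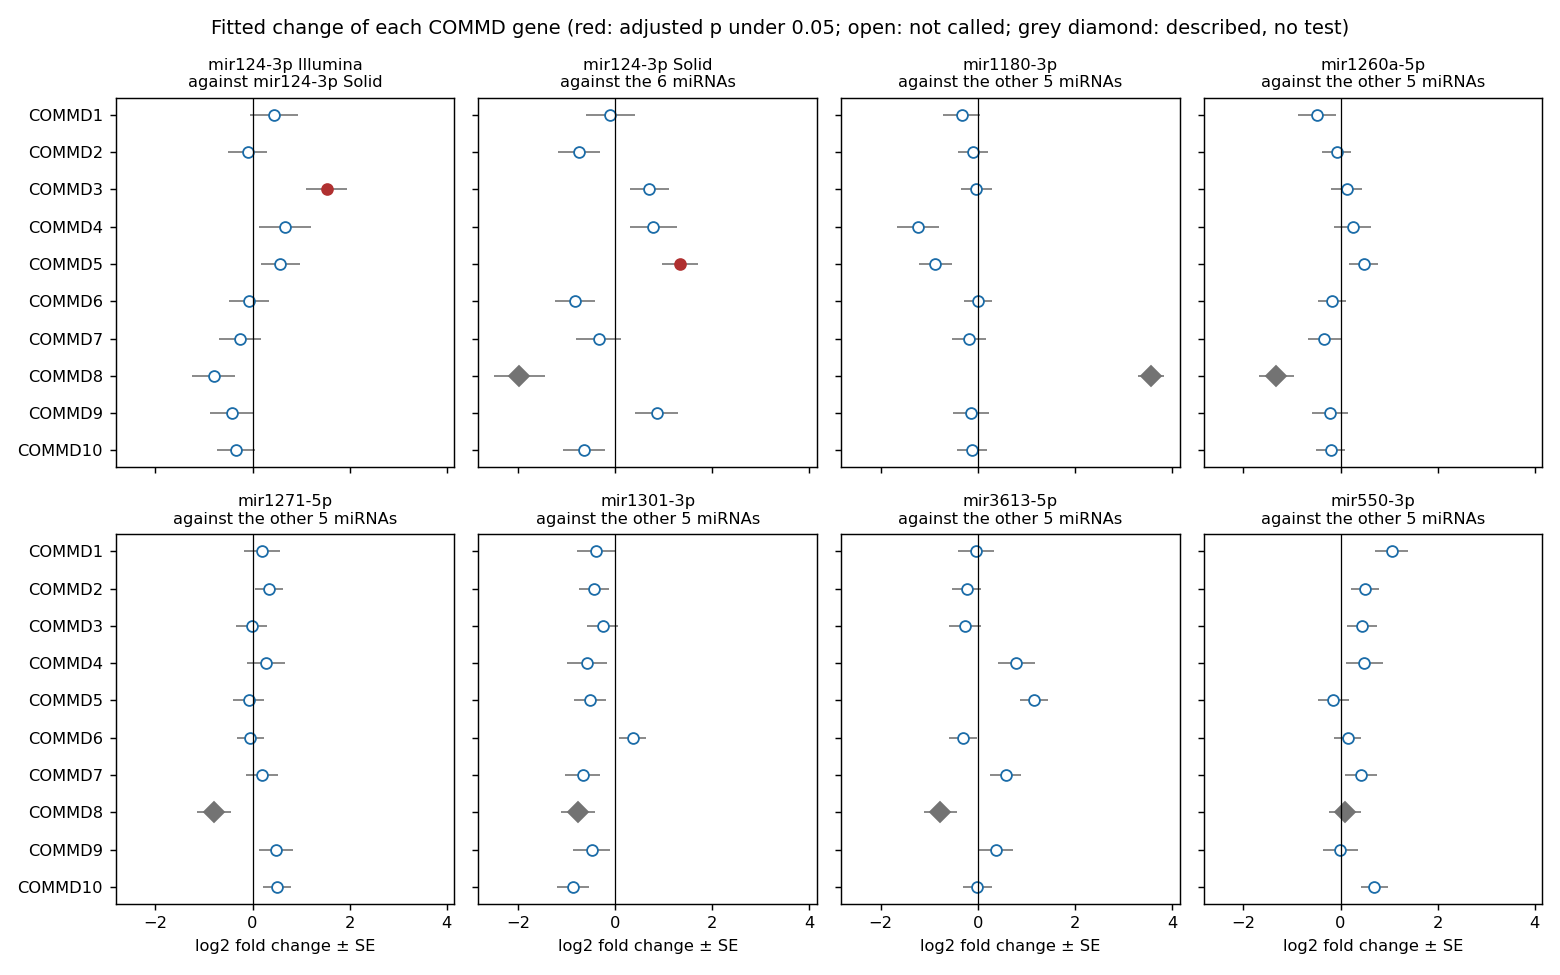
Log2 fold changes of the 10 members with their standard errors in the 8 comparisons, 1 panel each, with the miRNA in the panel title set against its reference. Red points passed an edgeR adjusted p under 0.05, open points did not, and grey diamonds are COMMD8 with mir1180-3p, 3.57, and against references that hold the mir1180-3p libraries, which are given with no test.

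The mir124-3p libraries extend the series to another miRNA, for which the labels give 2 platforms. In mir124-3p Solid COMMD5 had 74.6 CPM, above all 12 libraries of the 6 miRNAs, whose highest value was 59.1 CPM. The log2 fold change of 1.34 ± 0.37 against the mean of the 6 miRNAs passed the test (edgeR adjusted p = 0.0283). Without replicate 1 of mir550-3p, it was 1.32 (edgeR adjusted p = 0.0503). As the group has 1 library, its spread was taken from the other groups.

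COMMD8 had 87.0 CPM in mir124-3p Solid, below all 12 libraries of the 6 miRNAs. Its log2 fold change was -1.97 ± 0.53 against a reference that holds the mir1180-3p libraries. Without those libraries it was -1.32 ± 0.53, which did not pass the test (edgeR adjusted p = 0.149). Of the other 9 members COMMD5 was the 1 called, beside a background of 8.89%. The median of these 9 was -0.10, and -0.22 with COMMD8 included, against -0.12 over all genes. Of the 10 members 4 lay above and 3 below all 12 libraries, beside 21.0% and 11.0% of genes.

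Between the platforms, the 3 mir124-3p Illumina libraries were set against the Solid library. COMMD3 had 198, 231 and 187 CPM in the Illumina libraries, against 71.6 CPM in the Solid library. It was the only member called, with a log2 fold change of 1.52 ± 0.43 (edgeR adjusted p = 0.0125), beside a background of 21.9% of genes. The median of the members was -0.09, against -0.39 over all genes, and 4 members lay above and 4 below the Solid library in all 3 Illumina libraries, beside 12.8% and 64.8% of genes.

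The COMMD3 count of the Illumina libraries was not its own. COMMD3 and its neighbour BMI1, a Polycomb protein, are also annotated as 1 readthrough transcript, COMMD3-BMI1, and the 3 entries had identical counts in each Illumina library, 3299, 3612 and 4061. In the other 13 libraries the COMMD3 count was 11.3% to 60.4% of the readthrough count, and the readthrough count exceeded that of BMI1 by 32 to 272. In mir124-3p Solid the counts were 900 for COMMD3, 1490 for the readthrough and 1218 for BMI1. Among entries with at least 300 counts, 3.01% shared all 3 Illumina counts with another entry, against 0.0186% when the same was asked of mir124-3p Solid and the first replicates of mir550-3p and mir1180-3p. COMMD3 was the only member that did so, and its level in the Illumina libraries cannot be told apart from that of the whole locus.

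**Figure D4:**
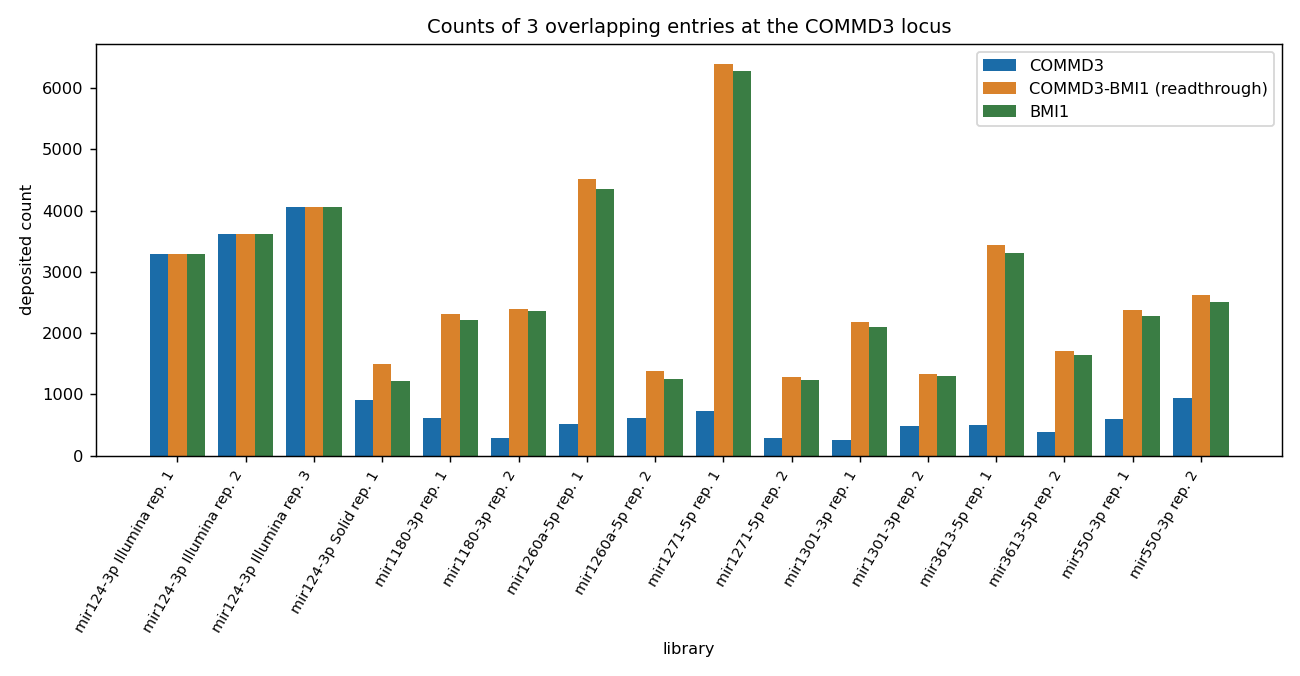
Deposited counts of COMMD3, the readthrough COMMD3-BMI1 and BMI1 in each of the 16 libraries, as bars from 0. The 3 bars are equal in the mir124-3p Illumina libraries (3299, 3612 and 4061), and the COMMD3 bar is the lowest of the 3 in the other 13 libraries.

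The other 9 members did not pass the test between the Illumina libraries and the Solid library in the fit of all 16 libraries with factors from the trimmed mean of M values. COMMD5 had 115, 99.5 and 118 CPM against 74.6 CPM, and COMMD4 had 92.9, 114 and 98.9 CPM against 64.4 CPM. COMMD8 had 46.2, 55.9 and 47.2 CPM against 87.0 CPM, so that the 4 mir124-3p libraries held its 4 lowest levels of the series. COMMD10 had 17.5, 17.6 and 17.2 CPM against 22.2 CPM, and COMMD1 23.1, 20.6 and 24.5 CPM against 16.8 CPM. The Illumina libraries lay on both sides of the Solid library for COMMD2, at 49.6, 67.7 and 52.9 CPM against 61.1 CPM, and for COMMD6, at 239, 355 and 200.03 CPM against 280.3 CPM. They lay below it for COMMD7, at 85.2, 103 and 89.4 CPM against 111 CPM, and for COMMD9, at 37.6, 39.2 and 38.1 CPM against 51.4 CPM. A fit on the 4 mir124-3p libraries alone, a choice made after the data were seen, moved the median of all genes by 0.28. It gave log2 fold changes of 0.95 for COMMD4, 0.85 for COMMD5 and 1.81 for COMMD3. More members than COMMD3 passed in that fit, and their adjusted p-values are not given, as the Solid group has 1 library.

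The genes that work with the family were taken in 6 lists with 54 genes tested: Commander partners, the WASH complex, sorting nexins and retromer, cargo of these sorting paths, NF-kappaB, and cullin ligases with their regulators. None of the 54 was called by edgeR with mir550-3p, mir3613-5p, mir1271-5p, mir1260a-5p or mir1180-3p. An unadjusted p under 0.05 was found for 3 of them with mir550-3p (16.4% of all genes), 4 with mir3613-5p (14.1%), 7 with mir1271-5p (9.34%), 1 with mir1260a-5p (5.33%) and 9 with mir1180-3p (13.7%). DESeq2 called 1 with mir550-3p (6.05% of all genes), 0 with mir3613-5p (1.02%), 1 with mir1271-5p (1.39%), 0 with mir1260a-5p (0.514%) and 2 with mir1180-3p (4.54%). With mir1180-3p the median log2 fold change was 0.12 for the 6 Commander partners, -0.46 for the 6 WASH genes and -0.38 for the 11 NF-kappaB genes, against -0.07 over all genes.

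With mir1301-3p 2 of the 54 genes rose and 2 fell, beside the background of 15.9%, and DESeq2 called 11, beside 17.4% of genes. VPS29, a subunit that retriever and retromer share, had 83.9 and 126 CPM with mir1301-3p, against 131 to 337 CPM in the other 10 libraries, and fell by 0.97 ± 0.31 on the log2 scale (edgeR adjusted p = 0.0436). CUL1, the scaffold of the SCF ubiquitin ligases, fell by 0.97 ± 0.29 (edgeR adjusted p = 0.0342). CUL4A, the scaffold of another ligase family, rose by 1.34 ± 0.31 (edgeR adjusted p = 0.0155), and SCNN1A, a subunit of the epithelial sodium channel, by 1.58 ± 0.47 (edgeR adjusted p = 0.0336) at a mean of 4.28 CPM, against 1.55 CPM in the reference. Leaving out 1 library ended the call of VPS29 in 7 of 12 cases, of CUL1 in 5, of SCNN1A in 4 and of CUL4A in 1. Both decreases also lost their call with upper-quartile scaling (-0.58 each, edgeR adjusted p = 0.127 for VPS29 and 0.12 for CUL1) and with no scaling factor (-0.63 each, 0.101 for VPS29 and 0.0979 for CUL1). These settings moved the median of all genes in this comparison by 0.39 and 0.34.

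With mir124-3p Solid 4 of the 54 rose and 1 fell, beside the background of 8.89%. RELA, the NF-kappaB subunit that COMMD1 binds, had 138 CPM in the Solid library, against 15.8 to 38.0 CPM in the 12 libraries of the 6 miRNAs, and rose by 2.23 ± 0.31 (edgeR adjusted p = 0.00023). The 3 mir124-3p Illumina libraries had 187, 112 and 165 CPM of RELA, so all 4 mir124-3p libraries lay above the other 12. C16orf62, now VPS35L, the core subunit of retriever, rose by 1.30 ± 0.38 (edgeR adjusted p = 0.0404), and KIAA0196, now WASHC5, a WASH subunit, by 1.30 ± 0.37 (edgeR adjusted p = 0.0346).

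Of the cullin list CUL1 rose by 1.17 ± 0.32 with mir124-3p Solid (edgeR adjusted p = 0.0276), and TCEB1, now ELOC, the elongin C adaptor, fell by 1.46 ± 0.42 (edgeR adjusted p = 0.0378). RELA stayed called when any 1 library was left out, whereas TCEB1 lost its call in 6 of 12 cases, C16orf62 in 3, KIAA0196 in 2 and CUL1 in 1.

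Between the platforms 3 of the 54 were called higher in the Illumina libraries and 4 lower, beside 21.9% of genes. FAM45A, now DENND10, a Commander partner, had a log2 fold change of 2.59 ± 0.58 (edgeR adjusted p = 0.00226), FAM21C, now WASHC2C, a WASH subunit, 3.85 ± 0.97 (edgeR adjusted p = 0.00583), and IKBKG, the regulatory subunit of the IkappaB kinase, 2.65 ± 0.80 (edgeR adjusted p = 0.0189). All 3 have near-identical copies in the genome, so these values are uncertain. The 4 that were lower were cargo genes at low levels: SCNN1B, SCNN1A and SCNN1G, the epithelial sodium channel subunits, averaged 0.0753, 0.237 and 0.0399 CPM in the Illumina libraries, and LRP1, a lipoprotein receptor, 1.47 CPM, against 1.03, 1.43, 0.478 and 5.97 CPM in the Solid library. Leaving out 1 library ended the call of LRP1 in 7 of 15 cases and of SCNN1A in 6, and DESeq2 called neither of these 2.

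Members were compared with one another, as a description, by the Pearson correlation of log2 CPM over the 12 libraries of the 6 miRNAs, which share preparation and scaling. Of 45 pairs 30 had a correlation above 0, with a median of 0.18, and 9 were above 0.5. The highest were COMMD2 with COMMD10 at 0.82, COMMD7 with COMMD9 at 0.78, COMMD4 with COMMD7 at 0.73 and COMMD1 with COMMD7 at 0.70. The lowest were COMMD5 with COMMD6 at -0.64 and COMMD4 with COMMD8 at -0.58, and the last was -0.22 over the 10 libraries without mir1180-3p. COMMD3 and COMMD8 had a correlation of 0.11.

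Among 11465 genes with a mean of at least 5 CPM, the 5 whose pattern over the 12 libraries was most like that of COMMD8 were ATP5J, now ATP5PF, a subunit of the mitochondrial ATP synthase (correlation 0.98), LYRM5, now ETFRF1, a mitochondrial LYR-motif protein (0.97), the chromodomain protein CDYL (0.97), the tRNA methyltransferase FTSJ1 (0.97) and the tRNA pseudouridine synthase PUS3 (0.97). Their log2 fold changes with mir1180-3p were 1.44 for ATP5J, 3.12 for LYRM5, 2.76 for CDYL, 2.24 for FTSJ1 and 2.69 for PUS3. Over the 10 libraries without mir1180-3p the correlations were 0.83 for ATP5J, 0.77 for LYRM5, 0.73 for CDYL, 0.77 for FTSJ1 and 0.74 for PUS3. These 5 genes were picked over 12 libraries that include the same 10, so these values are no separate check of the likeness.

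For each of the other members the single most similar gene was named. It was RPS10-NUDT3 for COMMD1 (correlation 0.93), MOB4 for COMMD2 (0.94), OMA1 for COMMD3 (0.91), SWI5 for COMMD4 (0.97), DAXX for COMMD5 (0.92), RPL24 for COMMD6 (0.84), NADK for COMMD7 (0.96), ULK4 for COMMD9 (0.92) and RNF114 for COMMD10 (0.97). No member was the most similar gene of another, but each was compared with 11465 genes, so this says little about the family.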

How the data were processed

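The table deposited by the authors holds raw counts, whole numbers with 1 row to each RefSeq mRNA and 1 column to each of the 16 libraries. TopHat2 and the build hg19 are named per the submitters' processing notes; neither the labels nor the file state the counting tool, strand setting or annotation release. Current symbols came from a RefSeq table that matched 18560 of 19077 entries by accession.

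edgeR 4.0.16 under R 4.3.3 was used, with filterByExpr, factors from the trimmed mean of M values and two-sided quasi-likelihood tests (robust), adjusted by Benjamini-Hochberg over all genes. All adjusted p-values are edgeR's unless DESeq2 (1.42.0) is named. Fits held the 12 libraries of the 6 miRNAs, 13 with mir124-3p Solid, or all 16 for the platforms. Standard errors of fold changes were derived from the quasi-likelihood test, as the absolute log2 fold change over the square root of its F statistic. Log2 CPM used a prior count of 2. Library totals and the limit of 3 counts behind a 0 are in the report.

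The members and lists were chosen with earlier results of these data known. Fold changes are given for members that were called or had the largest absolute value in a comparison, and levels in every library for those members. Called genes of each list, at most 3 per list and comparison by adjusted p, were named, which leaves SCNN1G as a gene named after its values were seen. COMMD4, COMMD2, COMMD6 and others outside the rule were likewise chosen after their values were seen. The replicate numbers did not pair the libraries. Alternatives were another scaling, no scaling, no filter, DESeq2, a replicate block, libraries described in the same style, and leaving out each library. A planned search of transcripts for seed matches was not run. The steps were tested on simulated counts.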

Additional observations from a re-analysis of the deposited data

How the results depend on the processing

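The log2 fold change of COMMD8 with mir1180-3p, given with no test, was 3.36 to 3.75 when 1 library was left out and 3.48 to 3.80 otherwise, and 0 of the other 9 members were called there under the alternatives run. With mir1271-5p the count of members called was 0 throughout. Some other counts changed by 1 or 2 members. With DESeq2 1 member was called with mir1301-3p (COMMD10) and 1 with mir3613-5p (COMMD5), beside 17.4% and 1.02% of genes, against 0 with edgeR. COMMD8 had -1.33 with mir1260a-5p by DESeq2, against a reference that holds mir1180-3p, which is given with no test. Upper-quartile scaling called 1 member with mir1301-3p (COMMD6, 0.77, edgeR adjusted p = 0.0478); this scaling moved the median of all genes there by 0.39. Between mir1301-3p and mir550-3p alone, whose libraries are described in the same style, 4209 genes were called. COMMD10 was the 1 member among them (-1.32 ± 0.37 in mir1301-3p against mir550-3p, edgeR adjusted p = 0.0291). Leaving out 1 library gave log2 fold changes of -1.11 to -0.68 for COMMD10 with mir1301-3p and 0.67 to 1.36 for COMMD1 with mir550-3p. For neither gene was the call the same in all of these fits. In mir124-3p Solid it gave 1.28 to 1.43 for COMMD5. Without the mir1180-3p libraries in the reference, added after seeing the data, 1 member was called in mir124-3p Solid, COMMD5. Between the platforms COMMD8 had -1.12 with no scaling factor, which moved the median of all genes by -0.31. In the 4 mir124-3p libraries alone COMMD4 had 0.95 and COMMD5 0.85, and the median of all genes moved by 0.28. In these platform fits more members than COMMD3 passed, and their adjusted p-values are not given, as mir124-3p Solid has 1 library.

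The cause of these changes was not tested. The numbers 1 and 2 do not pair the libraries by any label, and the deviations of same-numbered libraries had correlations of -0.14 to 0.361 over 15 pairs of miRNAs. A fit with the replicate block changed no member's call. In that fit COMMD8 had 3.64 with mir1180-3p, and COMMD5 had 1.31 in mir124-3p Solid. The block ended the calls of C16orf62 and KIAA0196 in mir124-3p Solid. The count of all genes called with DESeq2 was 148 against 16 with mir3613-5p, 879 against 266 with mir550-3p, 693 against 366 with mir1180-3p, 71 against 38 with mir1260a-5p, 166 against 107 with mir1271-5p and 2689 against 1613 with mir124-3p Solid. With upper-quartile scaling it was 4438 against 2815 with mir1301-3p and 50 against 107 with mir1271-5p. Without replicate 1 or 2 of the miRNA compared it was 172 and 170 with mir1180-3p, 19 and 50 with mir1260a-5p, 174 and 35 with mir1271-5p, 8 and 11 with mir3613-5p, and 32 and 9 with mir550-3p.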
